A study of Mus musculus with 6 samples.

Results

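Mammary epithelium is built of an outer basal layer of contractile cells and an inner layer of luminal cells, and the genes described here are those by which the layers are usually told apart. There were 10 of them, chosen by name: the basal genes Trp63, Krt5 and Krt14, the luminal genes Gata3, Elf5, Kit, Krt8, Krt18 and Krt19, and Sox9, a transcription factor of mammary stem and progenitor cells. A row was found for 8 of the 10 among the 28154 genes of the deposited table. Krt5, the type II partner of Krt14, and Elf5, an ETS factor of the alveolar lineage, had no row and were not analysed here. Expression was measured by RNA sequencing of 4T1, a mouse mammary carcinoma line that grows in immunocompetent mice of its own strain, in 3 control libraries and 3 libraries of cells treated with corticosterone, the main glucocorticoid of rodents. All 6 libraries came from this single line with no genetic change named, and no dose, time of treatment or vehicle is given in the labels.

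Keratins are the intermediate filament proteins of epithelial cells. Each filament pairs a type I with a type II keratin, so that Krt8 (type II) pairs with Krt18 or Krt19 (type I) in simple and luminal epithelium, and Krt5 (type II) with Krt14 (type I) in basal cells. Trp63 encodes p63, the transcription factor that maintains basal epithelial cells, while Gata3 encodes the zinc finger factor that specifies and maintains luminal cells. Kit encodes the receptor tyrosine kinase for stem cell factor and marks luminal progenitors.

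Krt8 and Krt18 are neighbours on chromosome 15 and are transcribed away from each other, Krt8 on the minus strand (101996698 to 102004482) and Krt18 on the plus strand (102028180 to 102032027). Their levels ran in parallel across the libraries, as described below, and a stretch upstream of each start is therefore shown. A peak in corticosterone replicate 2 was not particular to this pair, since Krt19 and the further keratin Krt7 were also highest there. Each holds the bases 250 to 141 before the RefSeq start (GRCm38.p6) and lies outside the annotated exons of both genes. Capitals mark the core recognised by GATA factors, spelled GATAA or TTATC on the other strand.
Krt8, chr15:102004483-102004592, minus strand: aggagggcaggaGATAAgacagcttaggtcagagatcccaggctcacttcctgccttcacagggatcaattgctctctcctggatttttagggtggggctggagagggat
Krt18, chr15:102027966-102028075, plus strand: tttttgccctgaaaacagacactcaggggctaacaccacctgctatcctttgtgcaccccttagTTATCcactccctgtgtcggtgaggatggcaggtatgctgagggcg
Each window held 1 match, and 12% of the 32851 windows of the same kind in RefSeq held at least 1. A window of Elf5 held a match as well. Neither window held the glucocorticoid response element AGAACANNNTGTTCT, its shorter single-site form AGAACA, the AP-1 element TGANTCA or the GC box GGGCGG on either strand. Matches in all RefSeq windows stood at 0.00304%, 7.67%, 2.79% and 11.6%, respectively. These letters describe the windows and say nothing on binding.

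Library totals lay between 62.2 and 66.2 M counts, and 17283 genes had enough counts to be tested. Whether libraries of 1 group came from separate cultures is not said, and p-values therefore reflect only how these samples vary. Across all tested genes, 487 passed an adjusted p of 0.05, or 2.82%, with edgeR's quasi-likelihood test and Benjamini-Hochberg adjustment, as for every edgeR adjusted p given here. Corticosterone replicate 2 lay closest to the controls on the first principal component (9.17, against 29.6 and 38.5 for the other treated libraries), and without it 3670 genes passed, or 20.5%. The epithelial label of the cells was met by Epcam, an epithelial adhesion molecule (mean of 98.3 FPKM), and by Cdh1, which encodes E-cadherin (93.0 FPKM). Of 15 markers of blood, endothelial, stromal and fat cells, 13 had a row, 7 of these stood at 0 in at least 1 library and none exceeded 2.21 FPKM. Their summed level was 37.5 to 39.4 CPM in controls and 38.9 to 41.8 CPM with corticosterone, where CPM are counts relative to the scaled library total. None of the 6 markers tested passed. Pecam1 (means of 1.24 and 0.62 CPM, edgeR adjusted p = 0.106) and Cdh5 (0.19 and 0.021 CPM, not tested) were lower with corticosterone, with no overlap between the groups. Of all tested genes, 11.6% were lower without overlap. In bulk RNA, fewer cells of a kind and less RNA per cell cannot be told apart.

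Per length of exon (FPKM), the 2 keratins of simple epithelium stood far above the other lineage genes. Krt18 averaged 736 FPKM over the 6 libraries and Krt8 430 FPKM, placing them 50th and 94th of all genes in the table. Krt19 followed with 51.1 FPKM, then Krt14 with 19.5, Sox9 with 14.9 and Gata3 with 9.15 FPKM. Kit and Trp63 were scarce, with means of 0.0756 and 0.0215 FPKM. In controls no neighbours in this order overlapped. With corticosterone, Krt14 (15.9 to 19.3 FPKM) overlapped Sox9 (14.9 to 17.9 FPKM), and Kit (0.0376 to 0.0581 FPKM) overlapped Trp63 (0.0282 to 0.0399 FPKM).

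**Figure D1:**
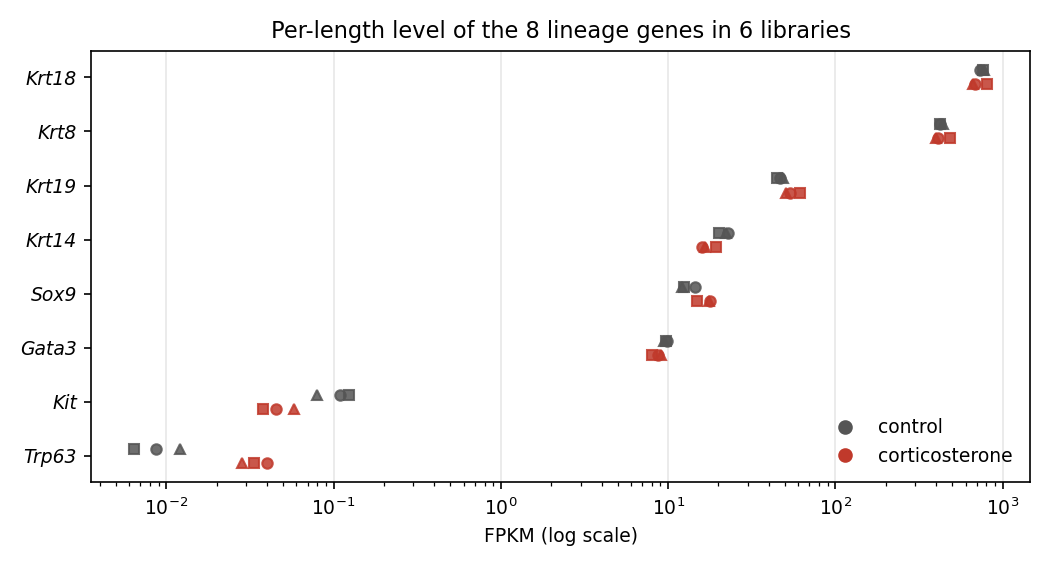
Level of each of the 8 lineage genes per length of exon (FPKM, log axis), with 1 point per library (circle, square and triangle for replicates 1, 2 and 3), controls in grey and corticosterone in red. Krt18 and Krt8 lie between 401 and 807 FPKM and Kit and Trp63 at 0.124 FPKM or less.

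Treated cells were compared with controls to ask which of these lineage genes differ in level. In the direction of a difference the genes did not sort by layer: among those with groups that did not overlap, the basal factor Trp63, the progenitor factor Sox9 and the luminal keratin Krt19 were higher with corticosterone, and the luminal genes Gata3 and Kit and the basal keratin Krt14 were lower. None of the 8 passed the test over all genes (edgeR), against the 2.82% that passed overall. At an unadjusted p under 0.05 there were 6 of 8, against 17% of all tested genes, and in the same 6 the groups did not overlap, against 22.2% of all tested genes. These shares are no measure of an excess, because the 8 genes were chosen with earlier results of these data known. DESeq2 called 3 of them, Sox9, Kit and Krt14, at a share of 8.66% over all genes, whereas limma on FPKM called 0 of the 6 it could test, at shares of 4.26% and 4.24% over all genes with a pseudocount of 1 and of 0.1. The median log2 fold change of the 8 was -0.037, beside 0.000096 over all tested genes.

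**Figure D2:**
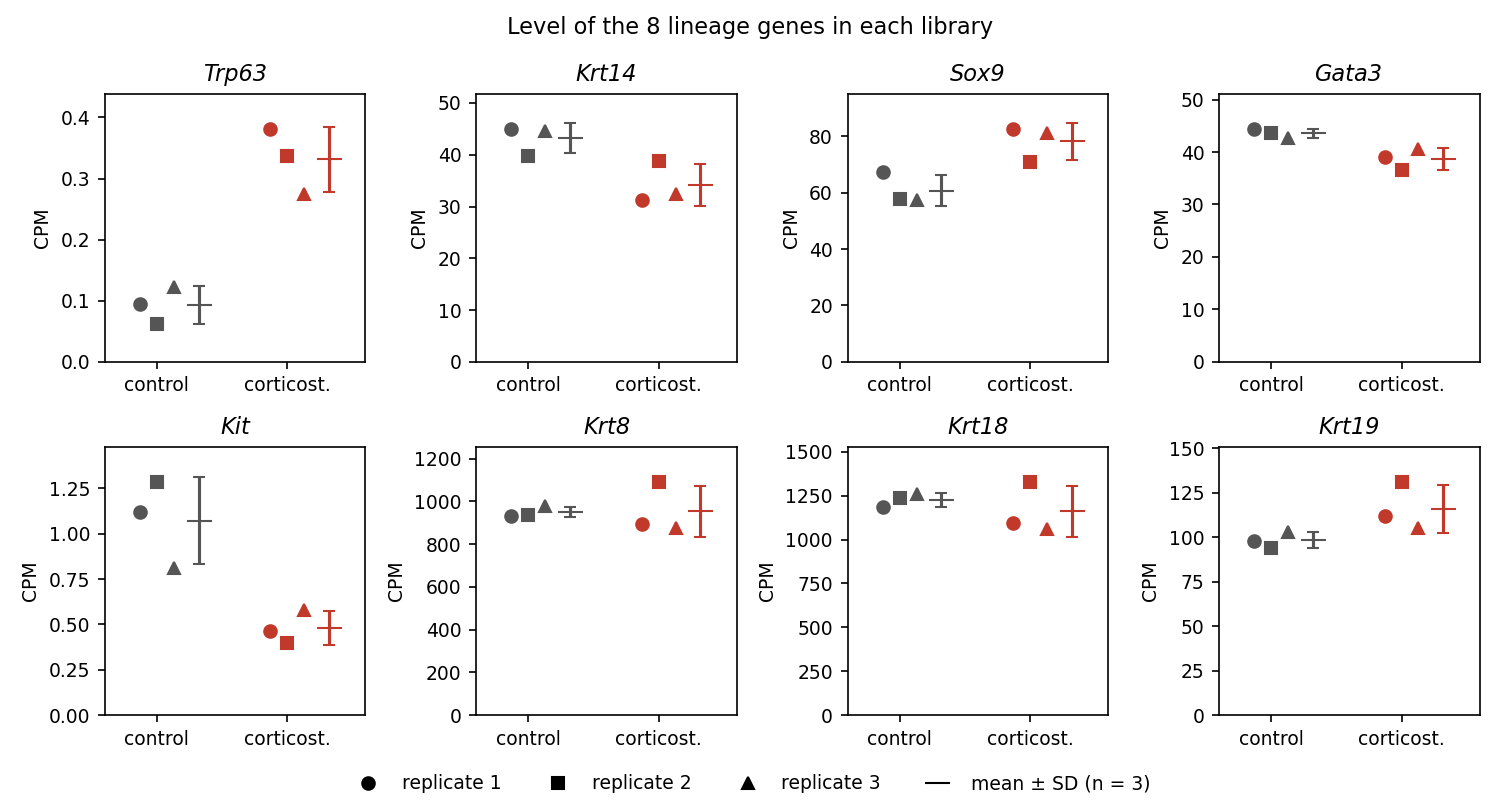
Level of each lineage gene in CPM (linear axis from 0) in the 3 control and 3 corticosterone libraries, with the mean and SD of each group (n = 3) beside the points. The groups do not overlap for Trp63, Krt14, Sox9, Gata3, Kit and Krt19, and for Krt8, Krt18 and Krt19 corticosterone replicate 2 is the highest of all 6 libraries.

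Among the transcription factors, Trp63 (chromosome 16, 25683763 to 25892102) had 6, 4 and 8 counts in control replicates 1, 2 and 3 and 24, 22 and 18 in corticosterone replicates 1, 2 and 3. Every treated library held more than the highest control, but all 6 values are small beside totals of over 62 M counts. The control counts all lay under the minimum count of 10, so Trp63 entered the test through its treated libraries alone. The means were 0.0928 ± 0.0307 and 0.331 ± 0.0534 CPM (SD, n = 3). The log2 fold change was 1.82 (SE 0.49, 95% interval 0.69 to 2.94). It did not pass (edgeR adjusted p = 0.105), nor without a filter on low counts (edgeR adjusted p = 0.165). DESeq2 gave no adjusted p at this depth. Trp63 has 2 sets of isoforms, with and without the transactivation domain, which counts per gene do not separate.

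Sox9 (chromosome 11, 112782224 to 112787760) stood at 67.2, 57.8 and 57.2 CPM in control replicates 1, 2 and 3 and at 82.7, 70.8 and 81.2 CPM in the treated ones. The lowest treated library, replicate 2, lay just above control replicate 1. Sox9 had a log2 fold change of 0.37 (SE 0.087, 95% interval 0.17 to 0.57), the lowest p of the 8 genes (edgeR unadjusted p = 0.00284, edgeR adjusted p = 0.0728). Without corticosterone replicate 2 it passed, with a log2 fold change of 0.43 (edgeR adjusted p = 0.0045). It also passed with DESeq2 (adjusted p = 0.00451). The shares of all genes that passed in these fits were 20.5% and 8.66%. The library left out was the treated one closest to the controls on the first principal component, which favours a call.

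Gata3 (chromosome 2, 9857078 to 9890034) was measured at 44.5, 43.6 and 42.6 CPM in controls and 39.0, 36.5 and 40.5 CPM with corticosterone. The ranges were narrow and did not touch, yet the gap was small. Its log2 fold change was -0.17 (SE 0.066, 95% interval -0.32 to -0.021, edgeR adjusted p = 0.24). An antisense transcript, Gm13256, overlaps 3.9% of the Gata3 exon length, and the counting is not stated to use strand. Over all alternatives the log2 fold change of Gata3 stayed between -0.20 and -0.13 and never passed.

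The receptor gene Kit (chromosome 5, 75574916 to 75656722) had 71, 84 and 53 counts in control replicates 1, 2 and 3 and 29, 26 and 38 in the treated libraries. All treated values were below the lowest control. The mean of Kit was 1.07 ± 0.241 CPM in controls and 0.48 ± 0.0929 CPM when treated (SD, n = 3). Kit thus had a log2 fold change of -1.15 (SE 0.29, 95% interval -1.83 to -0.48; edgeR adjusted p = 0.0878). It passed with DESeq2 (adjusted p = 0.0266), as did 8.66% of all genes tested there. Its ligand gene Kitl, which encodes stem cell factor and belongs to a list of lineage regulators described below, was far more abundant and lay on the opposite side. Kitl stood at 23.5, 24.1 and 23.1 CPM in controls and 39.1, 28.5 and 40.7 CPM with corticosterone, with replicate 2 the lowest of the treated libraries. It rose by 0.62 on the log2 scale (SE 0.13; edgeR adjusted p = 0.0459). That call was lost without control replicate 1, 2 or 3 and without corticosterone replicate 1 or 3 (edgeR adjusted p up to 0.203). For Kitl it was also lost without a filter on low counts (edgeR adjusted p = 0.129), with the replicate block (edgeR adjusted p = 0.0879) and in limma on FPKM with a pseudocount of 1 or 0.1 (limma adjusted p = 0.0707 and 0.0684).

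The basal keratin Krt14 (chromosome 11, 100203162 to 100207548) stood at 45.1, 39.8 and 44.6 CPM in controls and at 31.2, 38.9 and 32.5 CPM with corticosterone. Treated replicate 2 came within 1 CPM of control replicate 2, and the other treated libraries lay well below. The log2 fold change of Krt14 was -0.33 (SE 0.098, 95% interval -0.56 to -0.11; edgeR adjusted p = 0.131). It was -0.44 without corticosterone replicate 2 and then passed (edgeR adjusted p = 0.00457), and it also passed with DESeq2 (adjusted p = 0.0253). In these fits 20.5% and 8.66% of all genes passed.

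Krt19 (chromosome 11, 100140810 to 100146120), a type I keratin like Krt14 and on the same strand of the same keratin cluster, lay the other way. Its levels were 97.7, 94.0 and 103 CPM in controls and 112, 131 and 105 CPM with corticosterone. Corticosterone replicate 3 exceeded control replicate 3 by little, and replicate 2 was the highest. The log2 fold change of Krt19 was 0.24 (SE 0.086, 95% interval 0.044 to 0.44; edgeR adjusted p = 0.208). Without corticosterone replicate 2 it was 0.14 and did not pass either.

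Leaving out 1 library at a time, 0 of the 8 genes passed except without corticosterone replicate 2, where Sox9, Krt14 and Krt18 did (3 of 8, against 20.5% of all genes). The shares of all genes that passed were 0.928%, 0.493% and 0.895% without control replicates 1, 2 and 3 and 0.688% and 1.34% without corticosterone replicates 1 and 3. None of the 8 passed with DESeq2's size factors in edgeR (2.78% of all genes passed), without a filter on low counts (0.749%), with a mean FPKM of at least 1 (4.37%, with 6 of the 8 genes tested) or with the replicate number as a block (1.37%).

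For the abundant pair Krt8 and Krt18, the groups overlapped. Krt8 was at 934, 937 and 977 CPM in controls and 893, 1092 and 875 CPM with corticosterone, and Krt18 at 1183, 1237 and 1262 CPM in controls and 1096, 1330 and 1061 CPM with corticosterone. In both genes the treated replicate 2 was above every control and the other treated libraries were below every control. Log2 fold changes were 0.0056 for Krt8 (95% interval -0.19 to 0.20) and -0.079 for Krt18 (95% interval -0.27 to 0.12), neither of which passed (edgeR adjusted p = 0.982 and 0.689). Without corticosterone replicate 2, Krt18 passed at -0.19 (edgeR adjusted p = 0.0122) and Krt8 did not at -0.10 (edgeR adjusted p = 0.0803). In that fit 20.5% of all genes passed. Krt8 shares sequence with a processed pseudogene, Krt8-ps (7.82 CPM in controls and 7.64 with corticosterone), so counts could pass between the copies. With the counts of both added up, a fit chosen after seeing the data, the log2 fold change of Krt8 was 0.0053. A long noncoding RNA on the opposite strand, Gm36026, overlaps 5.2% of the Krt8 exon length.

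**Figure D3:**
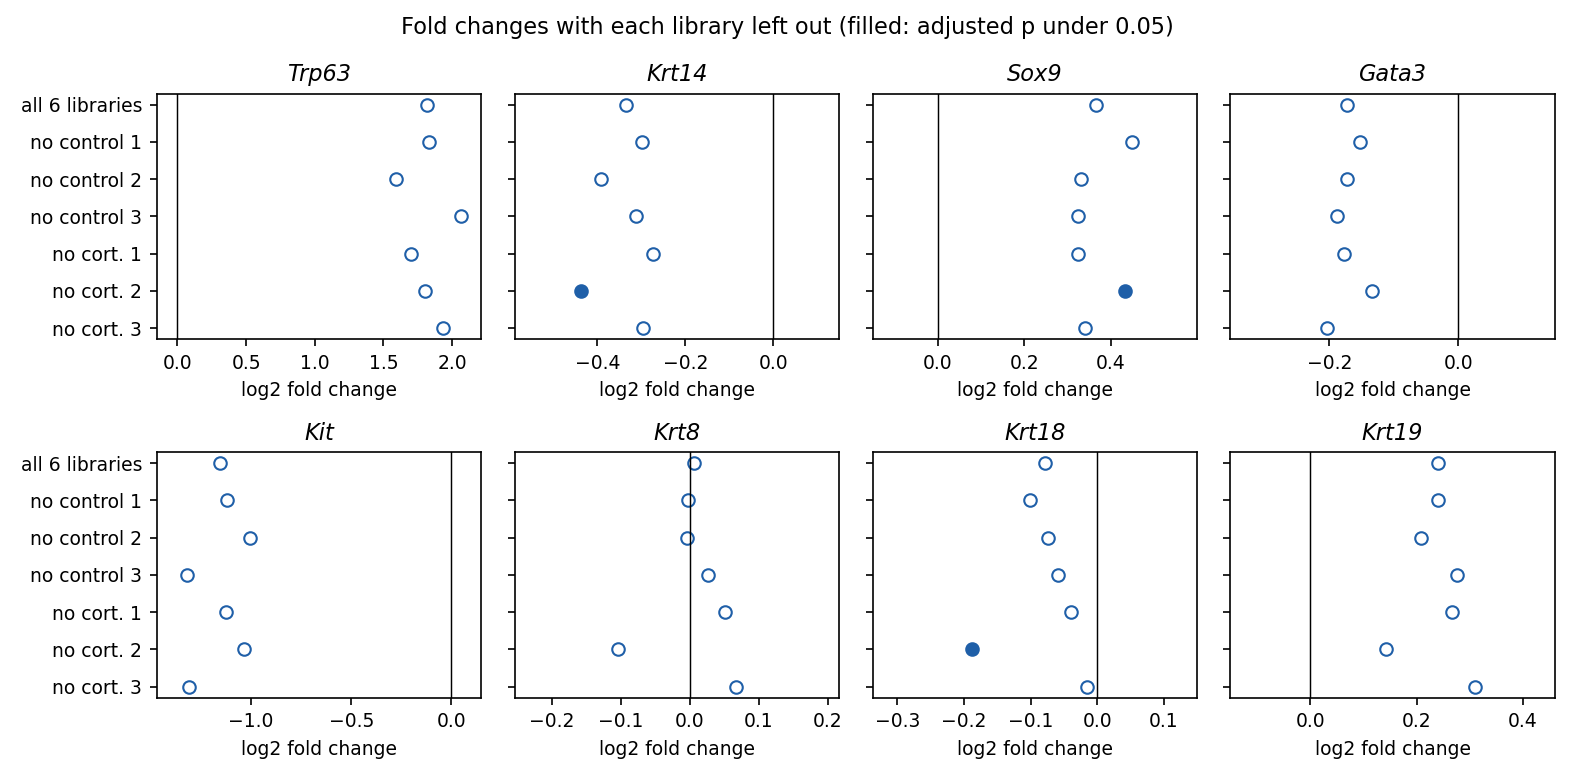
Log2 fold change of each lineage gene (horizontal axis, a scale of its own per gene) with all 6 libraries and with each library left out in turn, filled where the adjusted p is under 0.05. Among these fits, Krt14, Sox9 and Krt18 pass without corticosterone replicate 2, where 20.5% of all genes pass. None passes without another library, and the sign changes for Krt8 alone.

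Although Krt8 and Krt18 spread widely among the treated libraries, their ratio within a library did not. The coefficient of variation over the treated libraries was 12.6% for each of the genes, while the Krt8/Krt18 ratio of FPKM was 0.598, 0.603 and 0.605 in corticosterone replicates 1, 2 and 3 and 0.579, 0.556 and 0.568 in control replicates 1, 2 and 3. Replicate 2 was thus no exception among the treated libraries in this ratio, and the groups did not overlap. The means were 0.568 ± 0.0116 and 0.602 ± 0.00348 (SD, n = 3), a difference of 0.084 on the log2 scale. Ratios were described without a test, and how often ratios of other gene pairs separate the groups was not examined.

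Relative to Krt8, Krt19 was more abundant with corticosterone. The Krt8/Krt19 ratio of FPKM was 9.05, 9.45 and 8.99 in controls and 7.56, 7.88 and 7.89 with corticosterone, a log2 difference of -0.24. For the type I keratins of the 2 layers, the Krt14/Krt19 ratio was 0.487, 0.447 and 0.457 in controls and 0.295, 0.313 and 0.326 with corticosterone. This ratio, chosen after both genes had been seen to differ in opposite directions, had a log2 difference of -0.57, with treated replicate 2 between the other treated libraries. Krt14 over the sum of the luminal keratins Krt8, Krt18 and Krt19 was 1.89%, 1.63% and 1.77% in controls and 1.39%, 1.42% and 1.49% with corticosterone. The basal keratin was thus a small part of the 4 keratins in every library, and the groups did not overlap. Each ratio of this paragraph holds Krt14 or Krt19, whose own groups already did not overlap.

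**Figure D4:**
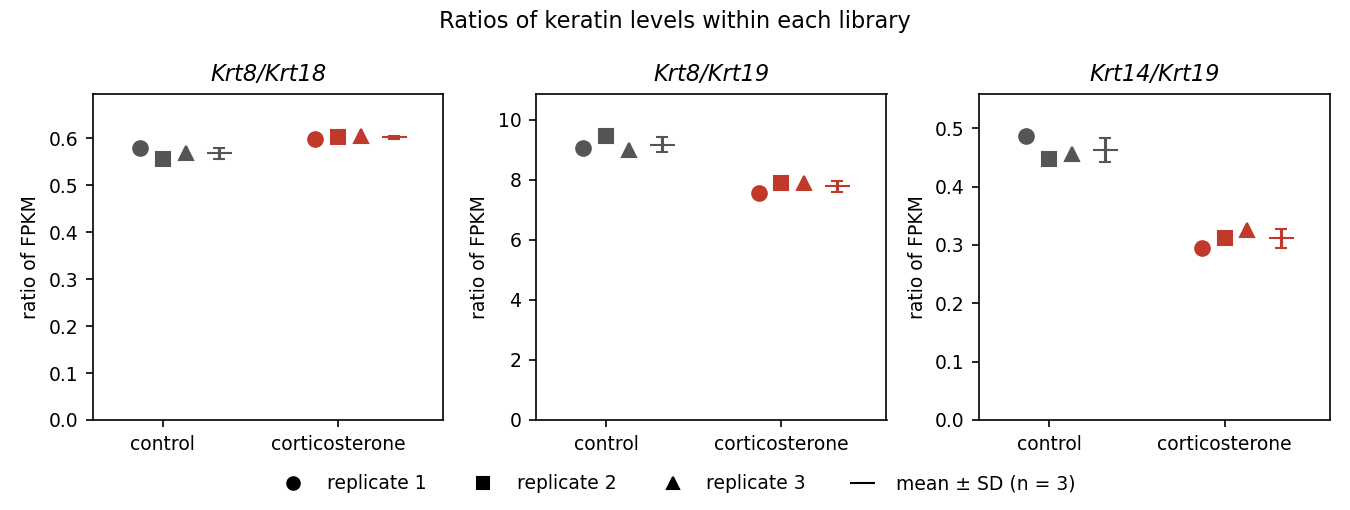
Ratios of FPKM within each library (axis from 0) for Krt8 over Krt18, Krt8 over Krt19 and Krt14 over Krt19, with the mean and SD of each group (n = 3). Krt8/Krt18 lies between 0.556 and 0.579 in controls and between 0.598 and 0.605 with corticosterone, and in all 3 panels corticosterone replicate 2 lies with its group.

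Around these genes, 6 lists of 20 further genes each were examined: basal and myoepithelial genes, partners and targets of p63, luminal progenitor and alveolar genes, hormone-sensing luminal genes, other keratins, and lineage regulators. Of the 120 genes, 105 had a row and 87 were tested. In all, 3 rose and 1 fell, 83 did not pass, and 24 had an unadjusted p under 0.05 (edgeR). Of all tested genes 1.35% rose, 1.46% fell and 17% had such a p. Their median log2 fold change was 0.040.

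In the basal and myoepithelial list, 1 of 18 tested genes fell and 0 rose, with 11 positive and 7 negative log2 fold changes and a median of 0.14. The gene that fell was Igfbp4, an IGF binding protein, at 657, 692 and 704 CPM in controls and 411, 503 and 398 CPM with corticosterone, a log2 fold change of -0.65 (SE 0.089; edgeR adjusted p = 0.00914). The call was lost without control replicate 2 or 3 or corticosterone replicate 1 (edgeR adjusted p up to 0.0754). Lgr6, an R-spondin receptor, had a log2 fold change of -0.33, Id4, an inhibitor of helix-loop-helix factors, one of -0.66 and Procr, the protein C receptor, one of 0.016, and none of them passed. Acta2, the smooth muscle actin of myoepithelial cells, was low (1.20 to 5.54 FPKM), at 2.98, 3.72 and 9.33 CPM in controls and 9.08, 7.86 and 13.6 CPM with corticosterone. Its groups overlapped, and its log2 fold change of 0.93 did not pass (edgeR adjusted p = 0.294).

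Of 19 tested partners and targets of p63, 14 had positive and 5 negative log2 fold changes, with a median of 0.19. Pkp1, the desmosomal plakophilin, was the 1 gene that rose, from 15.7 ± 0.954 to 21.6 ± 2.18 CPM (SD, n = 3), by 0.45 on the log2 scale (edgeR adjusted p = 0.0496). Its call was lost without control replicate 1, 2 or 3 and without corticosterone replicate 1 or 3 (edgeR adjusted p up to 0.214). Pkp1 did not pass either without a filter on low counts (edgeR adjusted p = 0.118), with the replicate block (edgeR adjusted p = 0.0923) or in limma on FPKM (limma adjusted p = 0.0604 and 0.0592). Perp, a desmosomal p53 and p63 target, and Itga3, an integrin chain that binds laminin, had log2 fold changes of -0.19 and -0.17 that did not pass, with no overlap between the groups. In this list 4 of 19 tested genes were higher without overlap and 3 were lower, against 10.6% and 11.6% of all tested genes.

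On the luminal side, 1 of 12 tested progenitor and alveolar genes rose and 0 fell, with a median of 0.017. It was Lbp, the lipopolysaccharide binding protein, with 0 counts in the 3 controls and 14, 26 and 21 counts with corticosterone. That is at least 20.3-fold higher, taking 3 counts over the control group as the floor (edgeR adjusted p = 0.023). Without control replicate 1, 2 or 3, or corticosterone replicate 1 or 3, it did not pass (edgeR adjusted p up to 0.105), nor with the replicate block (0.0968). Lbp met the minimum count through its treated libraries alone, and without a filter on low counts it did not pass (edgeR adjusted p = 0.0648). DESeq2 gave no adjusted p for Lbp, so the 1 gene of this list that DESeq2 called was another. Lbp also lay below the FPKM filter used for limma. Btn1a1, which encodes butyrophilin of the milk fat globule, was scarce, at 1.89 ± 0.115 CPM in controls and 2.79 ± 0.206 CPM with corticosterone (SD, n = 3), with a log2 fold change of 0.56 (not passed). Mfge8, a milk fat globule protein, at 48.2 FPKM, and the cytokine gene Lif, at 26.0 FPKM, were the most abundant, with log2 fold changes of 0.12 and -0.28 that did not pass. A further 5 genes of this list had no row and were not analysed.

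No hormone-sensing luminal gene of the 13 tested passed in edgeR, where 2 had an unadjusted p under 0.05. DESeq2 and limma each called 1, and the median was -0.073. Over all genes DESeq2 called 8.66%, and limma 4.26% and 4.24% with a pseudocount of 1 and of 0.1. The closest was Xbp1, a secretory and stress response factor, with a log2 fold change of 0.21 (edgeR adjusted p = 0.0685). Areg, which encodes the growth factor amphiregulin, had one of -0.24. Esr1, the oestrogen receptor gene, was low at a mean of 0.455 FPKM and varied among the treated libraries, with 8.47, 7.95 and 9.42 CPM in controls and 2.80, 5.99 and 7.70 CPM with corticosterone. Its log2 fold change of -0.65 did not pass (edgeR adjusted p = 0.327). The surface proteins Epcam (-0.078) and Cd24a (0.036) had the highest FPKM of the list. Epcam was taken above as a marker of epithelium in general.

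Among the other keratins, edgeR, DESeq2 and limma each called 0 genes, and 1 of the 6 tested had an unadjusted edgeR p under 0.05. Krt7, a type II keratin of simple epithelium, had more counts than Krt8, with 1066 ± 48.8 CPM in controls and 982 ± 136 CPM with corticosterone (SD, n = 3). Its level per length was lower, at 129 FPKM, because 7049 bases of annotated exon enter its FPKM against 1958 for Krt8. Like Krt8 and Krt18 it was highest in corticosterone replicate 2 (1138 CPM), with 895 and 911 CPM in the other treated libraries. Krt16, a keratin of activated epidermis, had a log2 fold change of 0.32 and Krt80 one of -0.093, neither of which passed.

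Of 19 tested lineage regulators, Kitl rose, 0 fell and 18 did not pass, with a median of 0.034. Elf3, an epithelial ETS factor related to Elf5, had a log2 fold change of -0.26, and Zfpm1, which encodes the GATA cofactor FOG-1, one of -0.25, with no overlap between groups in either. Of the 19, 1 was higher without overlap and 3 were lower, against 10.6% and 11.6% of all tested genes. The most abundant were Cebpb, a leucine zipper factor of mammary development (55.1 FPKM), and Cbfb, the partner subunit of RUNX factors (39.2 FPKM), with log2 fold changes of 0.17 and 0.24 that did not pass. Genes on the opposite strand overlap 20.7% of the exon length of Cebpb and 7.3% of that of Elf3.

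**Figure D5:**
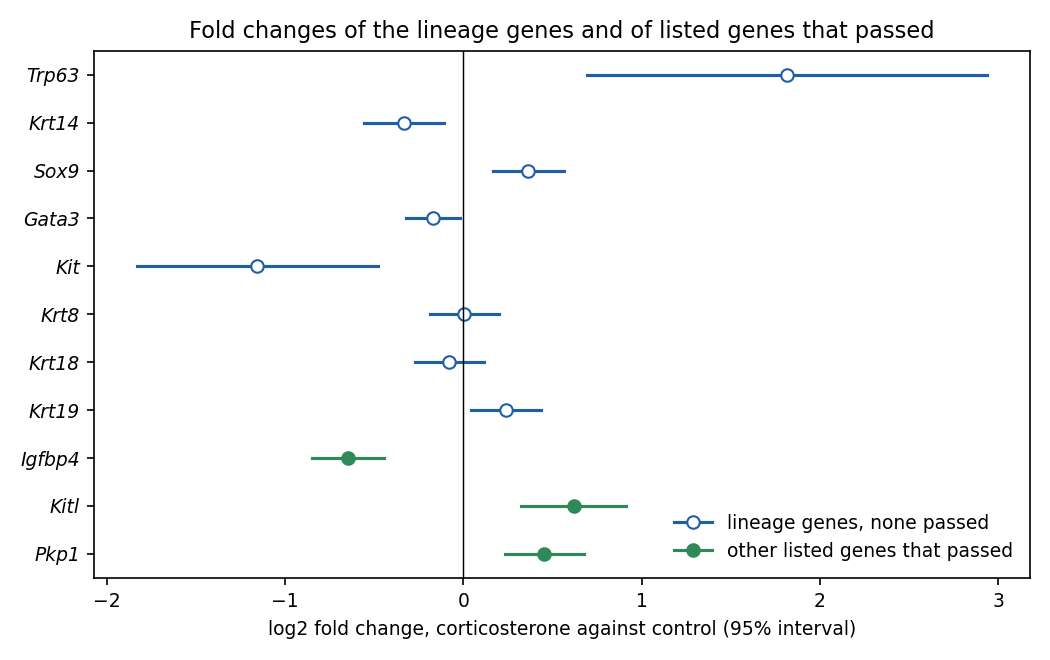
Log2 fold change with its 95% interval for the 8 lineage genes (blue, open: not passed) and for the genes of the 6 lists that passed (green, filled), without Lbp, whose controls are at 0. The intervals of Krt8 and Krt18 include 0, those of the other 6 lineage genes do not, and none of the 8 passed after adjustment over all genes.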

How the data were processed

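Groups came from the treatment field of the labels. The counts per gene and the FPKM values of each library were deposited by the authors in 1 table, per the file headers, and no source used here states the aligner, the counter or the strandedness. The submitters' processing notes name the human build GRCh38, while all 28154 identifiers are mouse. Coordinates are the table's. They were taken as GRCm38 because 87% of the 28086 identifiers found in GENCODE M21, an annotation of that build, had the same coordinates there. Those of Krt19 differed. The deposited FPKM follow the length of the merged annotated exons of a gene (98.4% of 12437 genes lay within 2% of a common factor). Every gene in the table has at least 1 count.

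Counts were filtered with filterByExpr (minimum count 10, total 15), scaled by TMM and tested between the groups by the quasi-likelihood method of edgeR 4.0.16 (under R 4.3.3). Benjamini-Hochberg adjustment covered the 17283 genes that remained. Rose, fell and passed refer to an adjusted p below 0.05. CPM use the TMM-scaled totals. Alternatives were DESeq2 1.42.0, its size factors, other filters, limma 3.58.1 with an intensity trend on log2(FPKM + 1) and log2(FPKM + 0.1), the replicate number as a block, and each library left out. The genes and lists were chosen with earlier results of these data known. Of each list, the 3 lowest p, the 2 highest mean FPKM and all that passed were named. Ratios Krt5/Krt14 could not be formed. RefSeq held upstream sequence for 7 of the 10 genes.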

Additional observations from a re-analysis of the deposited data

How the results depend on the processing

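In all 14 alternatives that gave a value, the direction of Sox9, Gata3, Krt14, Krt18 and Krt19 was the same. So it was in the 11 for Kit and the 10 for Trp63. Both lay below the FPKM filter used for limma, and DESeq2 gave no adjusted p for Trp63. Of these genes, all but Krt18 had groups that did not overlap, so leaving out a library could hardly turn their direction. The fit with Krt8-ps added changed only the counts of Krt8, and the other fits reuse the same libraries. The shared direction is therefore no check of stability. Krt8, near 0, turned to -0.0016 with the replicate block and to -0.0029, -0.0041 and -0.10 without control replicate 1, control replicate 2 and corticosterone replicate 2 (range without each library -0.10 to 0.066). With DESeq2 1293 genes passed, with no low count filter 211 and with the replicate block 237, and without each library between 88 and 3670. Of the 8 lineage genes 3 passed with DESeq2 and 0 to 3 without each library. DESeq2 called 2 basal, 3 p63 and 1 hormone-sensing gene, from lists with 18, 19 and 13 genes tested in edgeR, and 8.66% of all genes. Without a filter 0 p63, 0 progenitor and 0 regulator genes passed, also 0 of each with the replicate block. With limma on either pseudocount it was 0 of each as well (1 hormone-sensing). With a mean FPKM of at least 1, 0 progenitor genes passed. The limma fits and the fit with that FPKM filter leave out Lbp. Leaving out each library gave 0 to 2 basal, 0 to 7 p63, 0 to 3 progenitor, 0 to 3 hormone-sensing, 0 to 1 keratin and 0 to 7 regulator genes. Every upper value came from the fit without corticosterone replicate 2, where 20.5% of all genes passed. In each other such fit, 0 or 1 basal gene passed and 0 genes of the other lists. The cause of these changes was not tested. Each of the fits without a library uses 1 library fewer, also the one without corticosterone replicate 2, where 3670 genes passed against 487 with all libraries. The labels give no pairing of libraries, and the main fit used none. Deviations of same-numbered libraries from their group means had Pearson r of 0.011, 0.038 and -0.088, and 1 of 6 libraries correlated best with its own number. With 3 libraries per group this cannot decide whether same-numbered libraries shared a culture or a batch. Without each library, the log2 difference of Krt8/Krt18 lay between 0.069 and 0.099 and that of Krt8/Krt19 between -0.25 and -0.21. For Krt14/Krt19 it lay between -0.61 and -0.54, and for Krt14 over the luminal sum between -0.35 and -0.24. With 3 libraries per group such moves must stay below 1 SD between replicates, so this is no check of stability. In a CPM ratio of single genes the lengths cancel from the difference, which therefore had to be the same. Depth limits Trp63, Kit and Lbp, with at most 84 counts in any library.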
